A study of Bos taurus with 8 samples.

Results

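Basal and stress keratins are 8 genes of the keratin family, KRT5, KRT14, KRT15, KRT6A, KRT6B, KRT6C, KRT17 and KRT42, taken by symbol from the deposited table of 33132 genes. All 8 symbols were in the table and all 8 had counts in every library. RNA was sequenced from rumen tissue, the wall of the large fermentation chamber of cattle, with 1 library from each of 4 newborn male calves (labelled Neonatal Calf) and 4 adult steers, which are castrated males. All animals were angus cross, and the design compares adult with newborn rumen to ask what accompanies its growth after birth. The groups differ in age and castration together, so these cannot be told apart, and the labels used here name no treatment, exact age, diet or batch.

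Keratins are the intermediate filament proteins of epithelial cells, and every filament needs a type I and a type II keratin in equal amounts. In stratified squamous epithelia, the type of lining the rumen has, KRT5 (type II) pairs with KRT14 (type I) in the dividing basal layer, with KRT15 as a second type I chain of basal cells. KRT6A, KRT6B and KRT6C (type II) and KRT17 (type I) are known as stress keratins, since skin makes them after wounding, in rapid renewal and in inflammation, while some moist epithelia and appendages make them all the time. KRT42 is a type I keratin gene beside KRT17 that is a pseudogene in people.

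The members lie in the 2 keratin gene clusters of cattle. Positions are those printed in the deposited file, and the sources used here name no genome build for them. The type II genes follow each other on the plus strand of chromosome 5 with no other gene between them. KRT5 runs from 27367078 to 27372929, KRT6A from 27384552 to 27389805, KRT6B from 27403486 to 27409002 and KRT6C from 27420094 to 27425355. The type I genes are on the minus strand of chromosome 19, KRT15 from 41721537 to 41726453, KRT14 from 41792379 to 41796743, KRT17 from 41834618 to 41846161 and KRT42 from 41841955 to 41852477. Reads were counted over whole transcript spans, introns included, and reads falling in more than 1 gene were dropped. KRT17 and KRT42 share 4207 bases, 36.4% of the counted span of KRT17 and 40.0% of that of KRT42. The shorter transcript span of KRT17, 5742 bases long, lies wholly outside the shared stretch, whereas each of the 7 KRT42 spans includes it. The other 6 members overlap no other gene. The KRT6 genes are close copies, and the file header sets no option that would count reads aligned to several places, so the split of reads among the copies is uncertain.

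**Figure D1:**
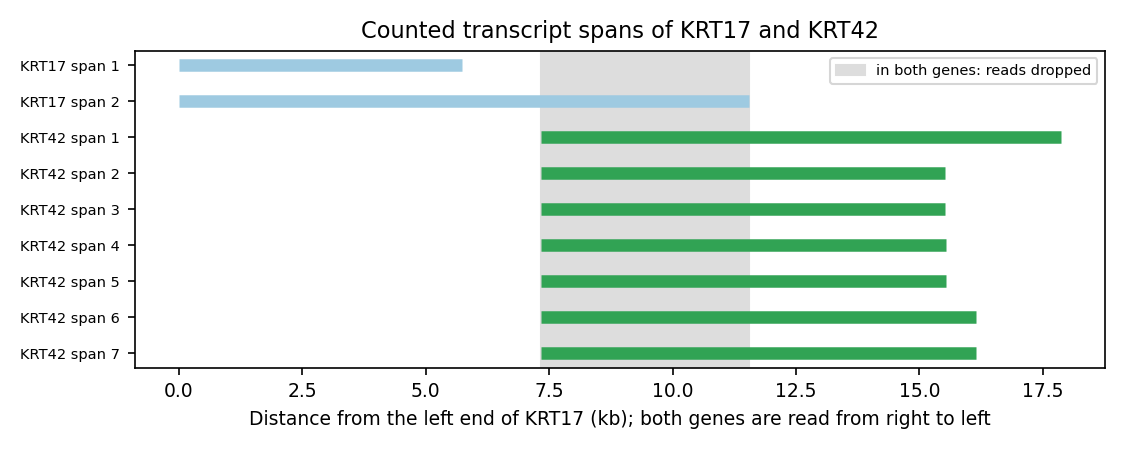
Transcript spans of KRT17 and KRT42 over which reads were counted, against distance from the left end of KRT17 in kilobases. The grey stretch of 4207 bases lies in both genes, so reads in it were counted for neither, and only the longer of the KRT17 spans enters it.

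Depth and the make-up of the tissue pieces set the frame for all values. The 8 libraries held 42322022 to 54449684 counts, and CPM is the usual depth-scaled count, here after TMM scaling. Markers of squamous epithelium other than the members (10 genes, among them CDH1, DSP and TP63) summed to 4647 to 6439 CPM in calves and 2125 to 6703 CPM in steers, and DSG3 was at 0 in all libraries. Of 9 tested, edgeR and limma-voom called 0 and DESeq2 called 1, with 1 at an unadjusted edgeR p under 0.05. The 10 smooth muscle markers summed to 5104 to 15998 CPM in calves and 11121 to 108049 CPM in steers, with steer 4 lowest and steer 2 highest among steers. Of 9 tested, 6 were called higher. On these sums only steer 4 lay within the range of the calves. The mean of these markers is a covariate in later fits, which can therefore separate it from group only poorly. The 7 leukocyte markers summed to 11.8 to 15.3 CPM in calves and 20.9 to 44.8 CPM in steers (4 of 5 tested higher), and AIF1 was at 0. The 7 fibroblast markers summed to 1678 to 4847 CPM in calves and 613 to 1419 CPM in steers, with 3 of 7 lower. The 11 hair follicle and skin markers summed to 187 CPM in calf 2 and 124 CPM in steer 4. The other calves had 11.5 to 14.9 CPM and the other steers 9.65 to 23.9 CPM. The keratins on that list were at most 0.167 CPM in calf 2 and at 0 in steer 4. Nearly all of these high sums thus came from LOR, TCHH and TYRP1. Of 2 tested, 0 were called higher and 1 lower, and KRT25, KRT31 and DCT were at 0. In whole tissue, fewer cells of a type and less RNA per cell cannot be told apart.

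Adult rumen had more KRT14 and far more of the stress keratins than newborn rumen, while KRT5 differed by less than the spread between animals. Of the 8 members, 6 were higher in steers, none was lower, and 2, KRT5 and KRT15, did not pass edgeR's quasi-likelihood test at a Benjamini-Hochberg adjusted p under 0.05. At an unadjusted edgeR p under 0.05, and by DESeq2 and limma-voom, 0 members were lower. All 8 had passed the filter on low counts. Over all 16326 genes tested, 7.70% were higher and 9.16% lower. The median log2 change, steer minus calf, was 3.22 over the members and 0.04 over all genes tested. The CPM ranges of calves and steers did not overlap for the 6 called members, which was the case for 23.3% of all genes tested, 10.5% with steers higher. Members were chosen with results of these data known, so these counts are a description of the 8 genes.

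**Figure D2:**
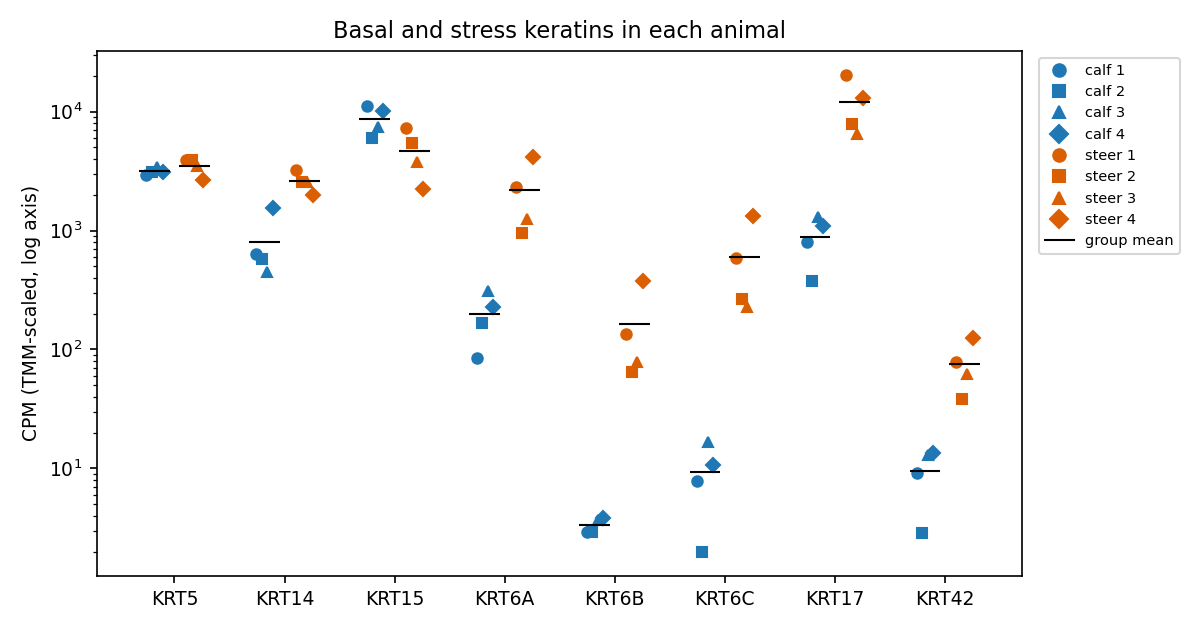
CPM of each keratin in every animal on a log axis, with calves in blue, steers in orange, a symbol for each animal and a black line at the group mean. Calves and steers overlap for KRT5 and KRT15, and every steer lies above every calf for the other 6 genes.

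The basal type II keratin KRT5 was steady among calves, at 2929, 3133, 3446 and 3134 CPM in calves 1 to 4. The 4 steers, in order, had 3932, 3919, 3467 and 2646 CPM. The lowest and the highest values were both in steers, and the ranges overlapped. Group means were 3161 ± 213 and 3491 ± 604 CPM (SD, n = 4 animals in each), a log2 change of 0.14 ± 0.26 (SE, edgeR adjusted p = 0.755). When the smooth muscle marker mean entered the fit as a covariate, the estimate changed sign, to -0.12 (adjusted p = 0.880).

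KRT14, the type I partner of KRT5, was at 636, 582, 447 and 1546 CPM in calves 1 to 4. In steers 1 to 4 it was at 3244, 2573, 2548 and 1983 CPM. Calf 4 stood well above the other calves but still below every steer. The mean rose from 803 ± 502 to 2587 ± 516 CPM (log2 change 1.69 ± 0.41, edgeR adjusted p = 0.0216). The call ended without calf 1 (adjusted p = 0.0696), without calf 2 (0.0513) or without calf 3 (0.0553), at log2 changes of 1.61, 1.56 and 1.49. It also ended with the smooth muscle covariate (1.39, adjusted p = 0.197), while without calf 4 the change was 2.23.

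KRT15, the other basal type I keratin, had 11073, 6052, 7413 and 10075 CPM in calves 1 to 4. The values were 7223, 5465, 3768 and 2222 CPM in steers 1 to 4. Steer 1 lay within the range of the calves, and the other 3 steers lay below it. Means were 8653 ± 2323 CPM in calves and 4670 ± 2157 CPM in steers (log2 change -0.89 ± 0.41, edgeR adjusted p = 0.170). Scaling by library size alone, which moved the median log2 change of all genes from 0.04 to -0.07, took KRT15 past the threshold as lower (-1.02, edgeR adjusted p = 0.0421). Its SE was then 0.29 instead of 0.41.

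Among the stress keratins, KRT6A was the most abundant KRT6 gene in every animal, on counts per kilobase of counted span. It was at 84.4, 168, 311 and 228 CPM in calves 1 to 4. Steers 1 to 4 had 2325, 960, 1258 and 4177 CPM. The lowest steer was 3.09 times the highest calf, and steer 4 was 4.35 times steer 2. The mean went from 198 ± 96 to 2180 ± 1454 CPM (log2 change 3.46 ± 0.57, edgeR adjusted p = 0.00374).

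KRT6B was scarce in calves, at 2.93, 2.89, 3.68 and 3.83 CPM, from 126 to 183 counts a library. It reached 134.6, 64.5, 77.9 and 376 CPM in steers 1 to 4. The 4 calves lay within 1.32 times of each other, while the steers spanned 5.82 times. The log2 change was 5.61 ± 0.61 (edgeR adjusted p = 0.000452), and 4.79 without steer 4.

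KRT6C showed the largest change of the 8, from 7.83, 1.99, 16.7 and 10.6 CPM in calves 1 to 4. In steers 1 to 4 it was at 582, 264, 227 and 1325 CPM. Calf 2 was the lowest calf and steer 4 the highest steer, and the lowest steer was 13.6 times the highest calf. The log2 change was 6.01 ± 0.84 (edgeR adjusted p = 0.00165), and 5.27 without steer 4. Calf 2 and steer 4 also had the highest hair follicle and skin marker sums of their groups, though hardly any of it came from the keratins on that list. Without calf 2 and steer 4 together the changes were 2.87 for KRT6A, 4.73 for KRT6B and 4.93 for KRT6C, all still called. The part of hair follicle and skin RNA in these values was not tested.

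Because the split of reads among the copies is uncertain, their sum was also taken. Reads that fit several copies equally were not counted and are missing from the sum too. KRT6A, KRT6B and KRT6C together had 95.2 to 331 CPM in calves and 1288 to 5878 CPM in steers, with means of 210 ± 100 and 2943 ± 2103 CPM. KRT6A made up 88.7% to 97.2% of the KRT6 counts in calves and 71.1% to 80.5% in steers. KRT6C made up 1.15% to 8.22% in calves and 14.5% to 22.5% in steers, and KRT6B 1.11% to 3.08% and 4.43% to 6.39%. The share of each copy did not overlap between calves and steers.

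KRT17, the type I stress keratin, was at 799, 379, 1288 and 1083 CPM in calves 1 to 4. Steers 1 to 4 had 20456, 7930, 6523 and 13120 CPM. The lowest steer was 5.06 times the highest calf, and steers 1 and 4 stood above steers 2 and 3. The mean went from 887 ± 394 to 12007 ± 6307 CPM (log2 change 3.76 ± 0.54, edgeR adjusted p = 0.00188).

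KRT42 had 9.15, 2.86, 12.96 and 13.4 CPM in calves 1 to 4. Steers 1 to 4 had 79.0, 38.4, 61.8 and 124 CPM. The groups did not overlap, with calf 2 lowest of all, and the log2 change was 2.98 ± 0.51 (edgeR adjusted p = 0.00447). Reads in its shared stretch are missing, and whether reads of the far more abundant KRT17 beside it were placed on it was not tested. KRT17 and KRT42 counts summed gave 382 to 1301 CPM in calves and 6584 to 20535 CPM in steers, close to KRT17 alone.

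The 3 KRT6 genes, KRT17 and KRT42 were called under each of the 20 alternative settings, which include leaving out any 1 library. When the smooth muscle marker mean entered the fit as a covariate, the log2 changes were larger, at 5.01 for KRT6A, 6.95 for KRT6B, 7.96 for KRT6C, 4.78 for KRT17 and 4.28 for KRT42. Leaving out calf 2 and steer 4 together lowered KRT42 to 2.34.

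**Figure D3:**
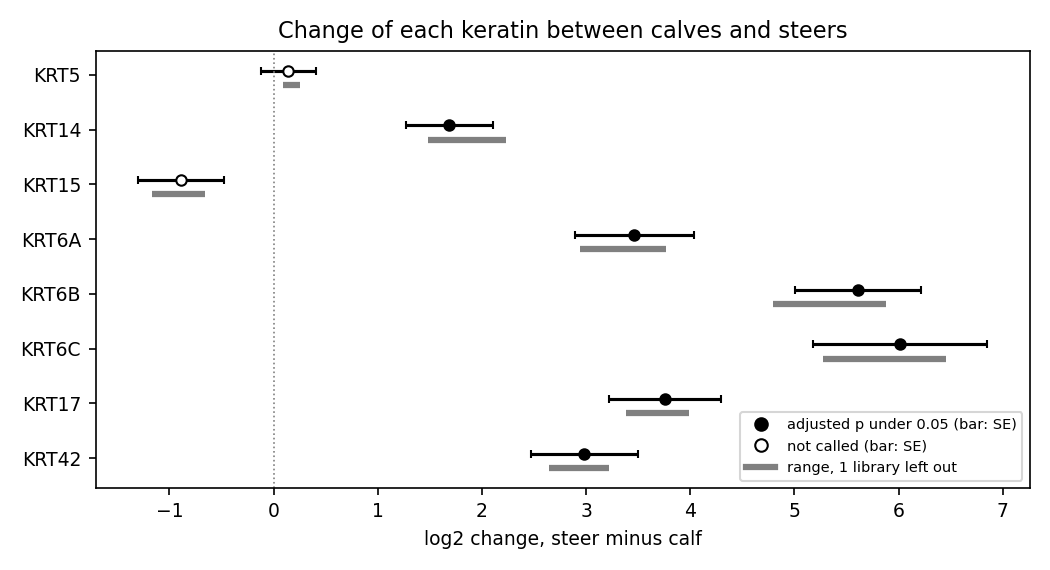
Log2 change of each keratin, steer minus calf, with its SE as a bar and, in grey, the range of the change when any 1 library was left out. Filled points passed the adjusted threshold. KRT5 lies near 0, KRT15 below it, and the KRT6 genes, KRT17 and KRT42 lie from 2.98 to 6.01.

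Levels of different genes were compared as CPM per kilobase of counted span, and since spans hold introns, the order between genes depends on this choice of length. Reads that fit several KRT6 copies equally were not counted, so KRT6 levels may be understated, by an amount not tested. In calves KRT15 came first (1760 ± 472), then KRT5 (540 ± 36), and the ranges of these 2 and of KRT14 did not overlap. KRT14 (184 ± 115), KRT17 (76.9 ± 34.1) and KRT6A (37.6 ± 18.2) followed with overlapping neighbours. KRT6C (1.76 ± 1.16), KRT42 (0.911 ± 0.463) and KRT6B (0.604 ± 0.089) came last, each overlapping the next and all below KRT6A.

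In steers the order of CPM per kilobase was KRT17 (1040 ± 546), KRT15 (950 ± 439), KRT5 (597 ± 103), KRT14 (593 ± 118), KRT6A (415 ± 277), KRT6C (114 ± 97), KRT6B (29.6 ± 26.3) and KRT42 (7.21 ± 3.45). Every neighbouring pair in this order overlapped between animals. With only the unshared bases of KRT17 and KRT42 as length, an alternative chosen after seeing the data, KRT17 was at 1637 ± 860 in steers and 121 ± 54 in calves. No member changed its place in either order.

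KRT15 made up 62.6% to 75.4% of the members' summed CPM per kilobase in calves and 12.5% to 33.6% in steers. KRT17 went from between 1.67% and 4.70% to between 20.1% and 33.8%, and KRT14 from between 4.31% and 11.5% to between 12.5% and 20.8%. Steer 4 had the lowest KRT15 share and the highest KRT6A share (22.0%) of all animals. Type I members summed to 1397 to 2498 CPM per kilobase in calves and 1921 to 3992 in steers, and type II members to 519 to 652 and 889 to 1567. Type I over type II was 2.46 to 4.76 in calves and 1.31 to 3.19 in steers, with overlap. These sums hold 8 genes, not all partners, and compare RNA rather than protein. KRT17 and KRT42 enter at their full spans, without the reads of their shared stretch, which lowers their part.

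**Figure D4:**
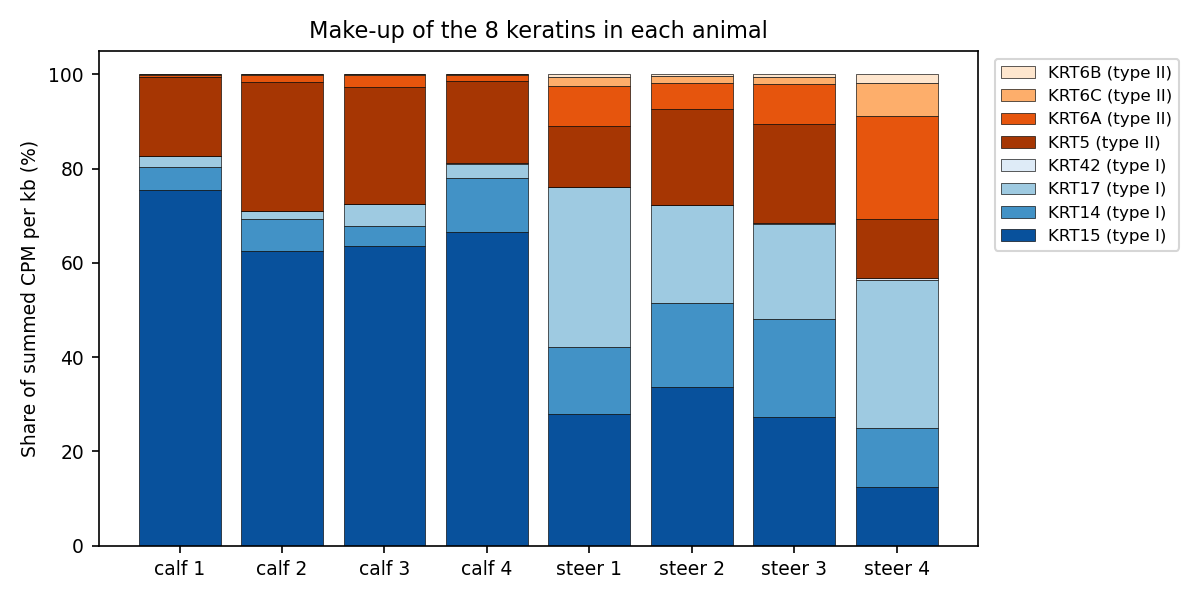
Share of each keratin in the summed CPM per kilobase of the 8 genes, in percent, for every animal, with type I genes in blue and type II genes in orange. KRT15 takes 62.6% to 75.4% in the calves and at most 33.6% in the steers, where KRT17 takes 20.1% to 33.8%.

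Ratios of 2 genes within an animal do not depend on depth or scaling, nor on RNA from cells that make neither gene. For 7 ratios, the 8 animals were compared by group in an exact permutation test, two-sided. Its smallest possible p is 0.0286. After Benjamini-Hochberg adjustment over the 7 ratios it became 0.0400, only because several ratios, some sharing a gene, tied at that smallest value. A ratio alone at that value would not have passed. As with the counts above, the members were chosen with results of these data known. All ratios are of counts per kilobase.

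KRT14 to KRT5, the basal pair, was 0.291, 0.249, 0.174 and 0.661 in calves 1 to 4. In steers 1 to 4 it was 1.11, 0.880, 0.985 and 1.00. Every calf was below every steer. The steer values near 1 rest on division by whole spans with introns (4365 bases for KRT14 and 5852 for KRT5): on counts as deposited the ratio was 0.657 to 0.825 in steers and 0.130 to 0.493 in calves. On the log2 scale the difference was 1.71 ± 0.41 (SE, n = 4 and 4, exact adjusted p = 0.0400). In steers the SD of the log2 ratio was 0.14, below those of KRT14 (0.29) and KRT5 (0.27) alone, and both genes ranked the 4 steers in the same order. In calves it was 0.82, beside 0.78 for KRT14 and 0.10 for KRT5.

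KRT15 to KRT14 was 15.5, 9.23, 14.7 and 5.78 in calves 1 to 4. It was 1.98, 1.89, 1.31 and 0.995 in steers 1 to 4, so every steer was below every calf. The log2 difference was -2.82 ± 0.41 (exact adjusted p = 0.0400). KRT15 alone did not pass its test (log2 change -0.89), while KRT14 alone was called higher (1.69). The rise of KRT14 therefore enters this ratio, and its passing is not a result about KRT15 alone.

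KRT6A to KRT5 compares the stress with the basal type II chain. It was 0.0321, 0.0598, 0.100 and 0.0809 in calves 1 to 4. Steers 1 to 4 had 0.659, 0.273, 0.404 and 1.76, so that, as counted, only in steer 4 did KRT6A exceed KRT5. KRT6A lacks reads that fit another KRT6 copy equally, so its level against KRT5 may be understated. The log2 difference was 3.25 ± 0.68 (exact adjusted p = 0.0400). Since KRT5 differed little between groups (log2 change 0.14) and KRT6A by 3.46, this ratio largely repeats the KRT6A difference.

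Within the KRT6 genes, the scarcer copies gained on KRT6A. KRT6B to KRT6A was 0.0113 to 0.0331 in calves and 0.0551 to 0.0856 in steers (log2 difference 1.88 ± 0.35, exact adjusted p = 0.0400). KRT6C to KRT6A was 0.0118 to 0.0926 in calves and 0.180 to 0.317 in steers (2.62 ± 0.65, exact adjusted p = 0.0400), with a difference of 2.03 without calf 2. In steers the log2 SD of these ratios was 0.28 and 0.35, while that of KRT6A was 0.95, of KRT6B 1.14 and of KRT6C 1.17. In calves the SD of KRT6B to KRT6A was 0.65 and of KRT6C to KRT6A 1.26, beside 0.80 for KRT6A, 0.21 for KRT6B and 1.32 for KRT6C. The ratios thus varied less than each copy alone in steers, but in calves KRT6B to KRT6A varied more than KRT6B. How many reads of 1 copy were placed on another was not tested.

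The stress type I chain was set against both others. KRT17 to KRT6A was 1.03 to 4.31 in calves and 1.43 to 4.00 in steers, with a log2 difference of 0.37 ± 0.55 that did not pass (exact p = 0.514). KRT17 to KRT14 was 0.475, 0.246, 1.09 and 0.265 in calves 1 to 4 and 2.38, 1.17, 0.968 and 2.50 in steers 1 to 4. Calf 3 overlapped the steers, and the log2 difference of 1.91 ± 0.61 did not pass (exact adjusted p = 0.0667). KRT17 was divided by its full span, though reads in the stretch shared with KRT42 were dropped. With only unshared bases as length, its ratios would be higher in every animal. The length used for a gene is the same in all animals, so it does not enter the difference between groups.

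**Figure D5:**
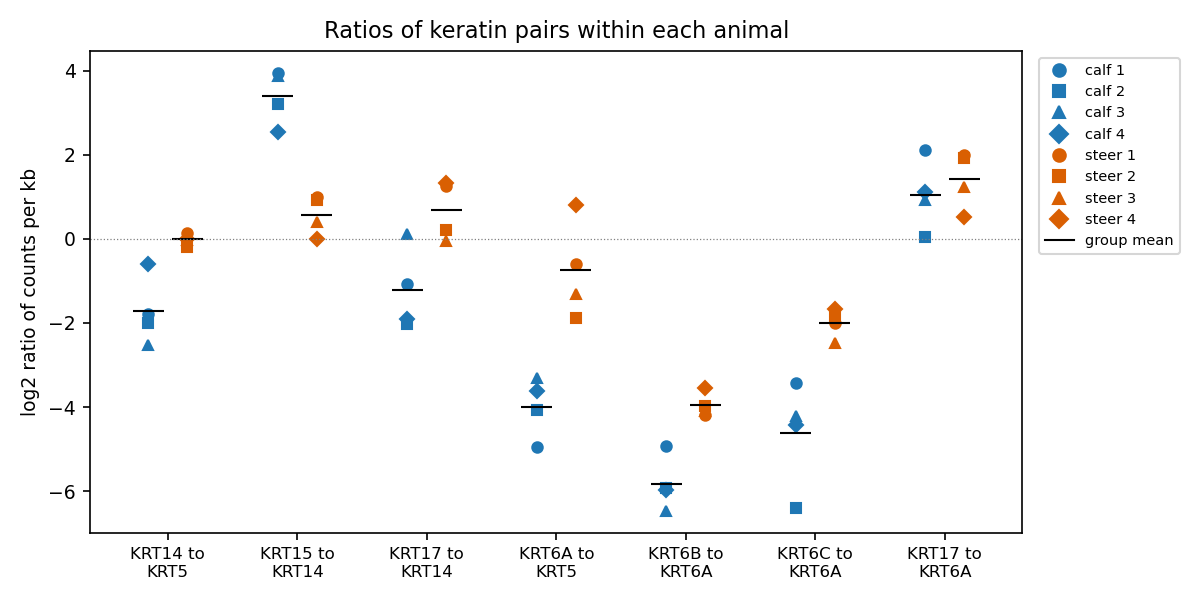
Log2 ratio of counts per kilobase for 7 pairs of keratins in every animal, with calves in blue, steers in orange and black lines at the group means. The steers lie close together for KRT14 to KRT5, all steers lie below all calves for KRT15 to KRT14, and the groups overlap for KRT17 to KRT14 and KRT17 to KRT6A.

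Steer 4 ranked lowest for the 3 basal keratins and highest for the 3 KRT6 genes and KRT42, while no calf was lowest for all 3 basal keratins. KRT5, KRT14 and KRT15 had the same order in steers, from steer 4 lowest through steers 3 and 2 to steer 1 highest. KRT6A, KRT6B and KRT42 had steer 2 lowest, then steers 3, 1 and 4. KRT6C also had steer 4 highest and KRT17 had steer 1 highest, both with steer 3 lowest. In calves, KRT5 and KRT6A shared 1 order, calf 1 lowest, then calves 2, 4 and 3. KRT6C and KRT17 also shared theirs (calves 2, 1, 4 and 3), as did KRT6B and KRT42 (calves 2, 1, 3 and 4). KRT14 had calf 3 lowest and calf 4 highest, and KRT15 had calf 2 lowest and calf 1 highest. Steer 4 had the lowest and steer 2 the highest smooth muscle sum among steers. The squamous epithelium marker sum was 2125, 2818, 4356 and 6703 CPM in steers 2, 3, 1 and 4. That is the steer order of KRT6A, KRT6B and KRT42, whereas KRT5, KRT14 and KRT15 were lowest in steer 4. The part of smooth muscle or of epithelium in these orders was not tested.

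The 8 members were a minor part of all keratin RNA in calves and nearly all of it in steers. Over 55 keratin genes of the table, the keratin share of a library was 5.92% to 9.69% for calves and 1.84% to 3.31% for steers. The share of the members in a library was 1.31% to 1.55% for calves and 1.80% to 3.22% for steers. They were thus 13.9% to 22.1% of keratin counts in calves and 94.6% to 98.0% in steers. The upper-layer pair KRT13 and KRT4 alone made up 4.48% to 8.03% of a calf library and 0.0182% to 0.0979% of a steer library.

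Among other type I keratins, 2 of 10 tested rose (KRT35 and KRT36) and 3 fell (KRT13, KRT18 and KRT24), with 50% called. Of 7 other type II keratins tested, 1 rose (KRT75) and 3 fell (KRT4, KRT7 and KRT78), with 57.1% called. Over all genes tested 16.9% were called. KRT35, known from hair, rose from 1.13 ± 0.63 to 14.3 ± 6.0 CPM (log2 change 3.66 ± 0.47, edgeR adjusted p = 0.00109). KRT75, a companion-layer keratin of the hair follicle that lies next to KRT6C, rose from 0.561 ± 0.429 to 4.77 ± 4.18 CPM, with 10.98 CPM in steer 1. Its call ended without calf 1 or calf 4, and its log2 change of 3.09 was 2.28 without steer 1 and 3.75 without calf 3. The call of KRT36 (log2 change 2.697) ended without any 1 of 6 libraries and was at 1.72 without steer 4. It also ended with library size only, the replicate block, and calf 2 and steer 4 left out together. The calls of KRT24 and KRT78 also each ended when single libraries were left out, and with the smooth muscle covariate (-2.06 and -1.83). KRT78 was at -4.59 without steer 4, and its call also ended with the replicate block. Several other hair keratins were under the filter and split in direction. KRT33A, KRT34 and KRT85 had means of 0.682, 0.178 and 0.179 CPM in calves and 0.037, 0 and 0 CPM in steers. KRT84 and KRT86 had 0 CPM in calves and means of 0.383 and 0.098 CPM in steers.

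KRT16, the classic type I partner of KRT6 in skin, is named here after its values were seen. It had 0 to 25 counts in any library, 0.315 ± 0.147 CPM in calves and 0.248 ± 0.170 CPM in steers (log2 change -0.32 ± 0.81, edgeR adjusted p = 0.83). Its counted span of 2181 bases on chromosome 19 (41826713 to 41828893) shares 21.7% with another annotated gene. Reads that fit KRT16 and its near relatives KRT14 and KRT17 equally would not be counted, and how many there were was not tested.

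Other basal cell markers were mostly not called, and those called were mostly lower. Of 24 markers without keratins, all tested, 1 rose and 6 fell (29.2% called, against 16.9% of all genes tested), with a median log2 change of -0.34. DST, which ties keratin filaments to hemidesmosomes, rose from 156 ± 21 to 279 ± 23 CPM (0.84 ± 0.19, edgeR adjusted p = 0.0154). Its call ended without calf 1, calf 3 or calf 4 (0.77 to 0.86) and with the smooth muscle covariate. The call also ended with library size only (edgeR adjusted p = 0.0688) and with the replicate block (0.0557). Collagen XVII (COL17A1), a hemidesmosome protein, fell from 1237 ± 271 to 357 ± 75 CPM (-1.79 ± 0.27, edgeR adjusted p = 0.00227). The anchoring fibril collagen COL7A1 fell by 1.23 ± 0.25, and the laminin receptor BCAM fell by 2.21 ± 0.32, on the log2 scale (BCAM -2.83 with the smooth muscle covariate). NGFR, DLK2 and SLC1A3 fell as well.

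Of 22 linkers and binding partners of keratin filaments, 1 rose (DST again) and 4 fell, PPL, EVPL, PKP2 and PRPH (22.7% called), with a median of -0.42. Periplakin (PPL), a plakin that holds keratins to desmosomes and the cornified envelope, fell from 1106 ± 344 to 217 ± 64 CPM (-2.35 ± 0.33, edgeR adjusted p = 0.00180, and -1.73 with the smooth muscle covariate). Envoplakin (EVPL), its partner, fell by 1.21 ± 0.35, a call that ended without any 1 of 5 libraries and with that covariate (-0.78, edgeR adjusted p = 0.39). The EVPL call ended as well with calf 2 and steer 4 left out together. PRPH, a neuronal intermediate filament that stands on the list as a filament protein, fell by 4.18 ± 0.54.

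Transcription factors linked with basal or stress keratin genes were mostly not called. Of 41 tested, 1 rose (POU2F3) and 5 fell, TFAP2C, GRHL2, GLI1, RARG and RARA, with a median log2 change of -0.35. The share called, 14.6%, was near the 16.9% of all genes tested. The retinoic acid receptors RARG and RARA fell by 1.10 ± 0.20 and 0.92 ± 0.22 on the log2 scale, from 178 ± 30 to 83.4 ± 12.8 CPM and from 87.9 ± 14.1 to 46.3 ± 11.8 CPM. The RARG call ended with the smooth muscle covariate (-1.08, edgeR adjusted p = 0.0568). The RARA call ended without calf 1, calf 4, steer 1 or steer 3, and with the replicate block. The epithelial factor GRHL2 was at 38.7 ± 3.8 and 25.4 ± 4.1 CPM (-0.61 ± 0.18, adjusted p = 0.0478 with edgeR). It lost its call when any of 7 libraries was left out and with the smooth muscle covariate (-0.26). The GRHL2 call also ended with library size only, no filter, the replicate block and scaling without the 50 most abundant genes. Leaving out calf 2 and steer 4 together ended it as well. POU2F3, an epidermal POU factor, was at 2.05 ± 0.61 and 6.73 ± 5.17 CPM (1.71 ± 0.51, edgeR adjusted p = 0.0469), with groups that overlapped. It was not called without any 1 of 7 libraries (1.05 without steer 4), but was called with the smooth muscle covariate (3.16). Library size only, limma-voom, the replicate block and leaving out calf 2 and steer 4 together also ended its call.

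Most genes that wounded or inflamed keratinocytes are known to raise together with KRT6 and KRT17 were not called. Of 32 tested, 2 rose, 3 fell and 27 did not pass, with a median log2 change of -0.12. The 15.6% called was near the 16.9% of all genes tested. The alarmins S100A8 and S100A9, partners that make calprotectin, were at 1918 ± 1463 and 2886 ± 2256 CPM in calves and 306 ± 158 and 66.8 ± 47.6 CPM in steers. S100A9 fell by 5.43 ± 0.89 on the log2 scale (edgeR adjusted p = 0.00353), at -6.04 without steer 1. S100A8 (-2.65 ± 0.79) overlapped between groups and lost its call without any 1 of 7 libraries. Its call also ended with limma-voom and with the replicate block. S100A7, a related protein, fell from 23.0 ± 16.9 to 0.205 ± 0.272 CPM. With the smooth muscle covariate none of the 3 was called (S100A9 -4.03, S100A8 -1.30 and S100A7 -4.55). The matrix protein tenascin C (TNC) rose from 5.39 ± 2.42 to 103 ± 49 CPM (4.25 ± 0.45, edgeR adjusted p = 0.000438, and 3.32 with the smooth muscle covariate). The cytokine IL1A rose from 0.131 ± 0.128 to 1.69 ± 2.15 CPM, most of it in steer 4 (4.89 CPM), at a log2 change of 3.63. Its call ended without any 1 of 6 libraries, with 2.19 without steer 4 and 4.25 without calf 2. It also ended with library size only, upper quartile scaling, limma-voom, the replicate block, and calf 2 and steer 4 left out together. Of 18 proliferation markers, 0 were called by edgeR, DESeq2 or limma-voom and 0 had an unadjusted edgeR p under 0.05. MCM7, the most abundant, was at 132 ± 39 and 125 ± 24 CPM.

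The genes whose profile over the 8 libraries came closest to each member were found by the root mean square difference of centred log2 CPM, among 9286 named genes other than the members with at least 10 CPM in either group. The closest member is given beside them where stated. For KRT6A they were the monocarboxylate transporter SLC16A1 (0.45), RGS1 (0.46) and LRAT (0.47), nearer than the closest member, KRT17 (0.70). For KRT17 they were the ketone-body enzyme BDH1 (0.40), FCHO1 (0.45) and BEST2 (0.48), with KRT42 at 0.56. For KRT6B they were the transglutaminase TGM5 (0.61), CD207 (0.68) and BDH1 (0.78), and for KRT6C CD207 (0.62), CDHR4 (0.65) and TGM5 (0.87). KRT6B and KRT6C differed from each other by 0.82, so KRT6B was nearer to KRT6C than TGM5 was. For KRT14 they were LGALS7B (0.32), COLQ (0.32) and MPC1 (0.34). KRT42 was nearest to GABBR2 (0.26), TMEM72 (0.26) and IL1R2 (0.29). KRT5 was nearest to SUGT1, ATG16L2 and CPSF4 (0.08 to 0.09), and KRT15 to SAP25, MAPK15 and NUBP2 (0.11 to 0.18). This likeness is a description over 8 libraries that share the age contrast.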

How the data were processed

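Rumen RNA of 4 calves and 4 steers was measured, 1 library for each. Total RNA, per the labels' protocols, was fragmented, primed with random hexamers, marked with dUTP and sequenced from both ends. The submitters' processing notes name Trimmomatic 0.39, STAR 2.7.11a, featureCounts 2.0.2 and DESeq2 1.42.0. The deposited file holds raw counts per gene name. Per the file headers, the authors ran featureCounts over transcript spans by gene name without strand, read-pair, multi-mapping or overlap options. Both mates were therefore counted, and 86.9% to 89% of counts from 1 to 10 were even.

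Steers and calves were compared over all genes with edgeR 4.0.16 in R 4.3.3: filterByExpr (16326 genes left), TMM, robust quasi-likelihood F test. SE is the log2 change over the square root of F. Common biological variation was 41.8%. Ratios were tested with scipy 1.17.1. Every member was named whatever its result. From each gene list up to 3 genes called in each direction with the highest mean CPM were named, or the most abundant tested gene where none was called, and for each member its 3 nearest profiles. Members and lists were chosen with earlier results of these data known. The procedure was tested on simulated data. Alternatives were 3 scalings, DESeq2 1.42.0, limma-voom (limma 3.58.1), 2 filters, a replicate block, dispersion without robust weights, scaling without the 50 most abundant genes, a smooth muscle covariate, each library left out, and calf 2 and steer 4 left out. No libraries repeated each other (smallest chi-square per degree of freedom 105). The p-values measure spread between these animals.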

Additional observations from a re-analysis of the deposited data

Results flagged for a closer look

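Within each group of 4 animals, a value was marked when its gap to the nearest other animal as a share of the group's range was above Dixon's 95% critical value, which chance does in about 1 in 20 groups. Of 124 groups of values, 10 were marked, and none was of a member or of a ratio of members. KRT36 was marked in both groups, with 0.968 CPM in calf 3 against 0.186 to 0.301 in the other calves and 6.70 CPM in steer 4 against 1.00 to 1.56 in the other steers. KRT75 was at 10.98 CPM in steer 1 against 1.84 to 3.33, KRT78 at 367 CPM in steer 4 against 53.3 to 68.5, and IL1A at 4.89 CPM in steer 4 against 0.400 to 0.894. Among calves, TNC was at 9.0 CPM in calf 2 against 3.87 to 4.57, LGALS7B at 367 CPM in calf 4 against 113 to 149 and SLC16A1 at 103 CPM in calf 3 against 53.0 to 54.7. Calf 2 was low for CDHR4, at 0.502 CPM against 2.44 to 2.75, and for IL1R2, at 13.8 CPM against 60.5 to 61.3.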

How the results depend on the processing

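Over 20 alternatives, 154 of 160 values of the 8 members kept their direction and their side of the threshold. Those that did not were the changes of KRT5 with the smooth muscle covariate (-0.12), of KRT14 with that covariate (1.39) and in 3 fits with 1 library left out (range with each library left out 1.49 to 2.23), and of KRT15 with library size only (-1.02, the 1 member then called lower). Under the 10 settings run for each of the 7 ratios, 2 pseudocounts and each library left out, no ratio changed direction (KRT14 to KRT5 1.45 to 2.09 and KRT6C to KRT6A 2.03 to 3.02 with 1 library left out). With 1 animal left out the exact test cannot go below 0.0571, so these ratios were values without a test. The 2752 genes called became 1831 with the replicate block and 1734 to 3257 with 1 library left out. The 1257 called higher became 835 with library size only (34.9% of calls instead of 45.7%), 1944 of 4080 with DESeq2, 785 with the replicate block and 705 to 1473 with 1 library left out. Same-numbered calves and steers did not pair: their deviations correlated at 0.199, 0.0826, -0.0953 and -0.266 for numbers 1 to 4. The replicate block changed no call of a member. Directions of uncalled genes turned for MCM7 (0.10 without calf 4 and 0.013 without steer 4; range -0.25 to 0.10), SUGT1 (-0.064), ATG16L2 (-0.21) and CPSF4 (-0.035) with the smooth muscle covariate, and CPSF4 with library size only (-0.020). The cause was not tested. Coding lengths were not used here, so levels between genes rest on the counted spans. With 4 animals a group, changes near 2-fold can be missed.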
